A study of Mus musculus with 2 samples.

Results

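The genes described here encode mitochondrial ribosomal proteins. They were taken as every symbol in the deposited tables that starts with Mrpl or Mrps followed by a digit, pseudogenes aside, which gave 77 genes of 24421 symbols. By symbol, 48 belonged to the large subunit (Mrpl) and 29 to the small subunit (Mrps). Bulk RNA-seq was available from granulocyte-monocyte progenitors (GMPs), the bone marrow progenitors of granulocytes and monocytes. NTB-GMP came from female non-tumor-bearing mice, and 4T1-GMP came from mice with an orthotopically implanted 4T1 mammary tumor, a transplantable mouse breast cancer line. Both groups were labelled as an F1 semi-syngeneic background (H-2b/d), were sorted by flow cytometry from bone marrow and had 1 library each. The labels give neither the age of the mice, the time after implantation nor the number of mice behind a library.

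Mitochondria carry their own ribosome, which translates the few messenger RNAs encoded by mitochondrial DNA, all of them for subunits of the respiratory chain and the ATP synthase. Its RNAs are encoded in the mitochondrial genome, whereas all of its proteins are encoded in the nucleus and imported. Some of these proteins have a counterpart in the bacterial ribosome and others arose within the mitochondrial lineage, and together they surround a reduced RNA core. The comparison of NTB-GMP and 4T1-GMP asks how these nuclear genes differed between progenitors of healthy and tumor-bearing mice.

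Values are RPKM, the reads of a gene scaled by its length and by the library size. With 1 library per group, no difference has a replicate check and no p-value is given. A log2 ratio is 4T1-GMP over NTB-GMP on the log2(RPKM + 0.1) scale, and all 77 genes were among the 10378 tested genes, those with a mean RPKM of at least 1. Each interval is a 95% Clopper-Pearson interval from reads recovered from the RPKM and covers counting error only, since sequenced PCR products without molecular identifiers are not independent molecules. In bulk RNA, fewer cells of a type and less RNA per cell cannot be told apart.

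Library and cell composition differed along with the groups. The library size was 10180365 reads in NTB-GMP and 30016263 in 4T1-GMP. The ribosomal RNA precursor Rn45s held 17.0% of the first and 6.98% of the second, and leaving it out of the library sizes lowers every log2 ratio by about the same amount, with a shift of -0.16. Markers of the labelled cell type were abundant: Mpo, a primary granule enzyme, was at 5163 RPKM in NTB-GMP against 5625 RPKM in 4T1-GMP. Of 10 GMP and primary granule genes 7 were higher in 4T1-GMP, with a summed RPKM of 10662 and 16379, while the progenitor marker Cd34 was at 154 and 59.4 RPKM and Kit at 78.5 and 49.1 RPKM. The summed RPKM of 12 neutrophil granule genes was 514 in NTB-GMP and 4060 in 4T1-GMP, with 12 of 12 higher. That of 10 monocyte and dendritic cell genes was 164 and 33.5, with 0 of 10 higher. Of 15 genes of the G2 and M phases, 13 were higher in 4T1-GMP, and their summed RPKM was 705 and 831. The 7 stem and early progenitor genes summed to 32.6 and 18.3 RPKM, with 3 of 7 higher in 4T1-GMP. The 7 erythroid and megakaryocyte genes summed to 19.95 and 6.07 RPKM, with 1 of 7 higher. In each of these lists, only 3 genes reached a mean RPKM of 1. Of all tested genes, 54.7% were higher in 4T1-GMP. The 6 lymphoid genes summed to 0.944 and 0.190 RPKM, with 1 of 6 higher. The globin genes Hba-a1 and Hbb-b1 were listed at 0 in both libraries. The part of these differences in the results that follow was not tested.

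All 77 genes were detected in both libraries, at moderate and unequal levels. In NTB-GMP their RPKM ran from 4.27 to 98.2, with a median of 23.5. In 4T1-GMP it ran from 7.09 to 108, with a median of 28.4. The order of levels was kept in large part, with a Spearman correlation of 0.943 over the 77 genes between the 2 libraries, which share gene lengths. The reads behind a gene numbered 64 to 722 in NTB-GMP and 194 to 2913 in 4T1-GMP.

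The most abundant large-subunit transcripts were Mrpl33, Mrpl18 and Mrpl12. Mrpl33, the counterpart of bacterial L33, was at 98.2 RPKM in NTB-GMP against 108 RPKM in 4T1-GMP. Mrpl18, which sits in the central protuberance, was at 74.0 and 101 RPKM. Mrpl12, the factor-recruiting stalk protein, was at 63.7 and 89.6 RPKM. Mrpl17, Mrpl1 and Mrpl35 had the lowest levels of the large subunit in NTB-GMP. Mrpl17 was at 4.27 and 7.53 RPKM, Mrpl1 at 6.59 and 8.47 RPKM and Mrpl35 at 6.62 and 8.99 RPKM. The lengths behind their RPKM were 3356, 4188 and 3695 bases, against a median of 985.5 bases over the large subunit.

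In the small subunit, Mrps21, Mrps26 and Mrps16 led in NTB-GMP. Mrps21 was at 59.4 RPKM in NTB-GMP against 71.7 RPKM in 4T1-GMP, Mrps26 at 45.7 and 59.7 RPKM, and Mrps16 at 42.7 and 60.7 RPKM. Mrps25, Mrps11 and Mrps6 were lowest in NTB-GMP, with 6.30, 9.98 and 10.2 RPKM. The highest member exceeded the lowest 23.0-fold in NTB-GMP and 15.3-fold in 4T1-GMP. All these comparisons between genes rest on RPKM, which is per length, so a long annotated length lowers the rank. Mrps25 had 389 NTB-GMP reads, above the small-subunit median of 236. The length behind its RPKM was 6065 bases, and 4590 exon bases of the gene overlap Nr2c2 on the opposite strand.

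**Figure D1:**
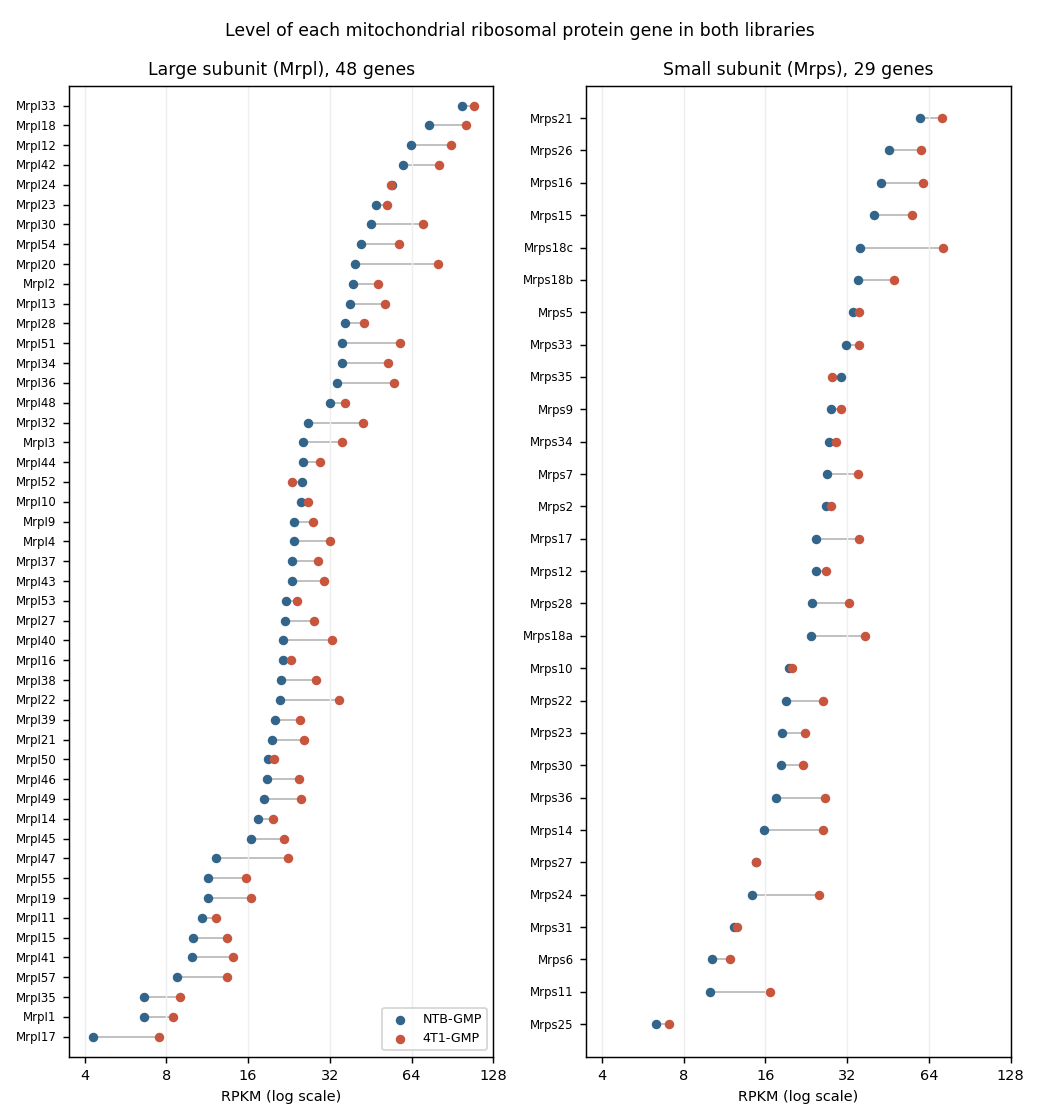
RPKM (log scale) of each of the 77 genes in NTB-GMP (blue) and 4T1-GMP (red), 1 library each, ordered by the NTB-GMP level within the large subunit (left) and the small subunit (right). The red point lies to the right of the blue one for 74 genes, and levels run from 4.27 to 108 RPKM.

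Transcripts of mitochondrial ribosomal proteins were higher in 4T1-GMP almost throughout. Of the 77 genes, 74 had a log2 ratio above 0, against 54.7% of all tested genes. A level at least 25% higher was found for 46 genes, against 25.2% of all tested genes, and 0 genes were at least 20% lower (the same step downward on the log scale), against 21.7%. At least a 1.5-fold higher level was found for 16 genes, against 9.8%. The median log2 ratio was 0.39, with the middle 50% of the genes between 0.18 and 0.51, and that of all tested genes was 0.05, with its middle 50% between -0.26 and 0.32. The summed RPKM of the 77 genes was 2082 in NTB-GMP and 2731 in 4T1-GMP, which is 1.31-fold higher, and its share of all RPKM was 0.502% and 0.622%.

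The size of the difference depended on the library sizes. Without Rn45s in them, the median log2 ratio was 0.23, beside -0.11 for all tested genes. On that scale 59 of 77 genes were above 0, against 39.2% of all tested genes, and 22 were at least 25% higher, against 14.3%. At least 20% lower were 0 of 77, against 3304 of the 10378 tested genes. The distance of the members' median from that of all tested genes is nearly the same on both scales, and 71 of 77 genes lay above the all-gene median. Over the 7035 tested genes within the members' range of mean RPKM, 59.6% were above 0, 25.4% were at least 25% higher and the median was 0.09. The counting interval of the log2 ratio was above 0 for 54 of 77 genes, against 36.5% of all tested genes. It was below 0 for 0 of 77, against 2916 of the 10378 tested genes. With Rn45s left out it was above 0 for 41 of 77 genes, against 22.4%. It was then below 0 for 2, and the share of all tested genes below 0 on that scale was not computed. The 4T1-GMP library was the deeper, so the reads of NTB-GMP set most of the width of these intervals, whose median half-width was 0.20 on the log2 scale.

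**Figure D2:**
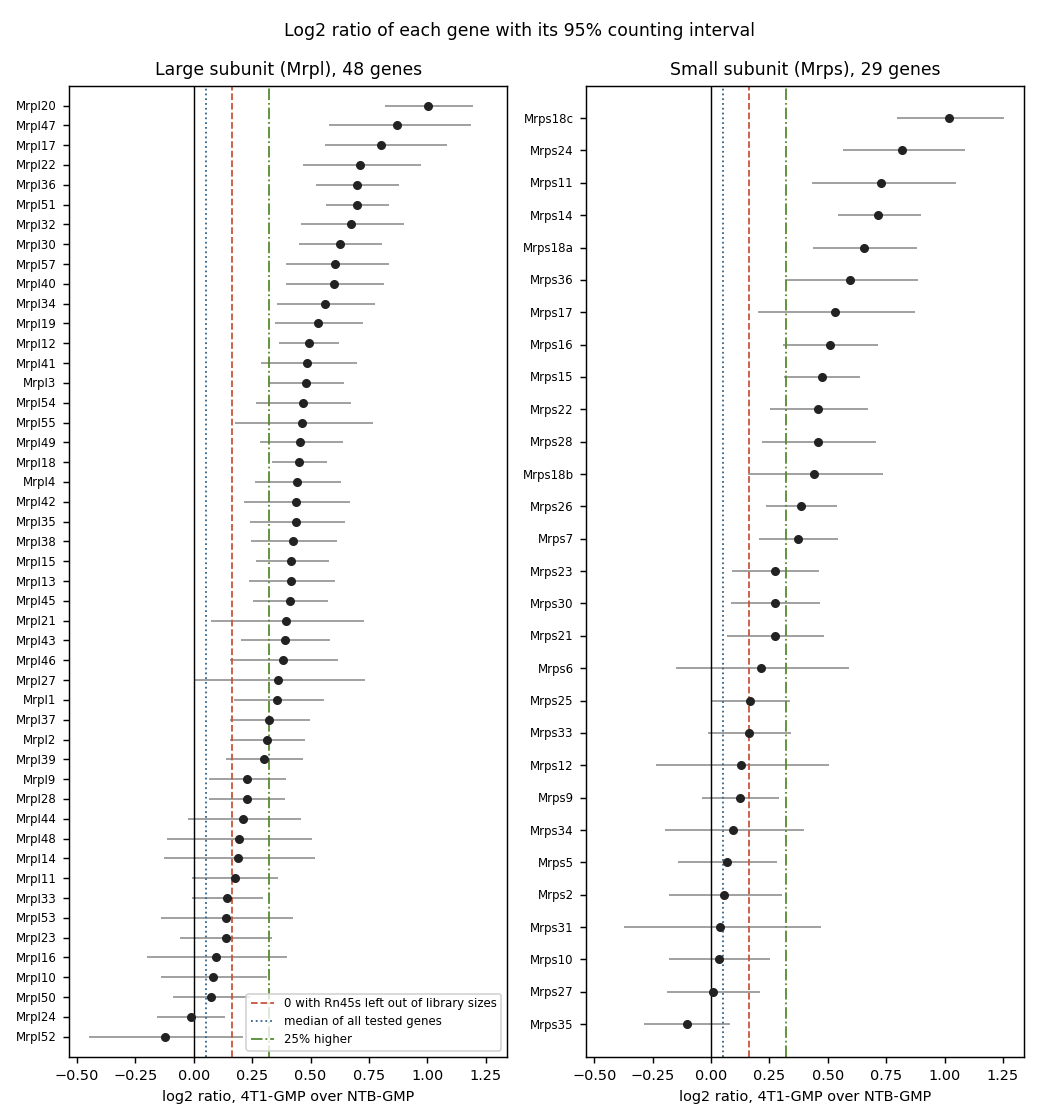
Log2 ratio of 4T1-GMP over NTB-GMP for each gene (points) with its 95% counting interval (lines), in the large subunit (left) and the small subunit (right). Vertical lines mark 0, the median of all tested genes (0.05), the place of 0 without Rn45s in the library sizes and a 25% higher level; 46 points lie at or past the last of these.

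Both subunits were higher in 4T1-GMP, and their ranges overlapped nearly whole. The large subunit had a median log2 ratio of 0.42 (middle 50% 0.22 to 0.50), with 46 of 48 genes above 0 and 32 at least 25% higher. The small subunit had a median of 0.27 (middle 50% 0.12 to 0.51), with 28 of 29 genes above 0 and 14 at least 25% higher. The medians differed by 0.14, by 0.086 after quantile normalization and by 0.062 after centring within length classes (a setting chosen after seeing the data), and the difference was not tested. Of the small-subunit genes 17 lay at or below the large-subunit median, and of the large-subunit genes 14 lay at or below the small-subunit median. Over all tested genes, 54.7% were above 0 and 25.2% were at least 25% higher. Without Rn45s in the library sizes, the subunit medians were 0.25 and 0.11. On that scale 40 of 48 and 19 of 29 genes were above 0, against 39.2% of all tested genes. The balance of the subunits was close to equal in both libraries, with a summed RPKM of the large subunit that was 1.83 times that of the small subunit in NTB-GMP and 1.87 times in 4T1-GMP.

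The largest log2 ratios of the large subunit belonged to Mrpl20, Mrpl47, Mrpl17, Mrpl22 and Mrpl36, with the mitochondria-specific Mrpl51 level with the last of them at 0.70. Mrpl20 was at 39.7 RPKM in NTB-GMP against 79.8 RPKM in 4T1-GMP, a log2 ratio of 1.00 (interval 0.82 to 1.198). Mrpl47, the counterpart of bacterial L29 beside the peptide exit, was at 12.2 and 22.4 RPKM, a log2 ratio of 0.87 (0.58 to 1.19). Mrpl17, the large-subunit gene of lowest level, had a log2 ratio of 0.80 (0.56 to 1.08). These lay above at least 95.2% of all tested genes. Mrpl22, which lines the exit tunnel, was at 20.96 and 34.4 RPKM, a log2 ratio of 0.71 (0.47 to 0.97). Mrpl36, the smallest protein of the bacterial subunit, was at 34.1 and 55.4 RPKM, a log2 ratio of 0.70 (0.52 to 0.88).

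The small subunit was led by Mrps18c, Mrps24, Mrps11, Mrps14 and Mrps18a. Mrps18c had the highest log2 ratio of all 77 genes, with 35.6 RPKM in NTB-GMP against 72.3 RPKM in 4T1-GMP, a log2 ratio of 1.02 (0.79 to 1.26). Mrps24, the counterpart of bacterial S3, was at 14.2 and 25.2 RPKM, a log2 ratio of 0.82 (0.56 to 1.09). Mrps11, of the platform that faces the large subunit, was at 9.98 and 16.6 RPKM, a log2 ratio of 0.73 (0.43 to 1.05). Mrps14, of the subunit's head, was at 15.8 and 26.0 RPKM, a log2 ratio of 0.71 (0.54 to 0.90). The exons of Mrps11 and Mrpl46 overlap on opposite strands, and without a stated strand setting their shared reads cannot be assigned.

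The promoters of the 2 genes of highest log2 ratio, of a further one with the same motif and of the gene of lowest log2 ratio are shown so that the sequence can be read beside the values. Each runs 5′ to 3′ on the gene's strand from 250 bases before to 50 bases after the RefSeq start site (GRCm38.p6), and capitals mark every match to a searched motif. Mrps18c lies at chr5:100798509-100798808 (+), Mrpl20 at chr4:155802628-155802927 (+), Mrpl36 at chr13:73330759-73331058 (+) and Mrpl52 at chr14:54426659-54426958 (+). Where RefSeq has several starts for a gene, each was searched.
Mrps18c: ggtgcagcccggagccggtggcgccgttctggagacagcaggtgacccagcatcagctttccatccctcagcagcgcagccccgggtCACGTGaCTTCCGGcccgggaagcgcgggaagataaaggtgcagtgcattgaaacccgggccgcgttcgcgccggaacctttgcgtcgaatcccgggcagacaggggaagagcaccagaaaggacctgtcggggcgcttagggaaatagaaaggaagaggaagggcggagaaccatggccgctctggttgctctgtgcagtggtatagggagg
Mrpl20: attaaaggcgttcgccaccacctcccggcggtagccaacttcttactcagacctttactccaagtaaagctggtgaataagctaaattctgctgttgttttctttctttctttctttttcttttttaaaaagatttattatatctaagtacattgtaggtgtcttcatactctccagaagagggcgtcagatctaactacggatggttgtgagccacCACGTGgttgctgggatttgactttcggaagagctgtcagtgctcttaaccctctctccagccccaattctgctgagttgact
Mrpl36: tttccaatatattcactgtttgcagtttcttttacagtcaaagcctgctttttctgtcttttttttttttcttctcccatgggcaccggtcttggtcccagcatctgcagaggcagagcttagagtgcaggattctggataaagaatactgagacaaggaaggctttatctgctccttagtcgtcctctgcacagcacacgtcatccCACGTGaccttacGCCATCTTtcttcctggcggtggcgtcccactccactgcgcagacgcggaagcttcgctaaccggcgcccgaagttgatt
Mrpl52: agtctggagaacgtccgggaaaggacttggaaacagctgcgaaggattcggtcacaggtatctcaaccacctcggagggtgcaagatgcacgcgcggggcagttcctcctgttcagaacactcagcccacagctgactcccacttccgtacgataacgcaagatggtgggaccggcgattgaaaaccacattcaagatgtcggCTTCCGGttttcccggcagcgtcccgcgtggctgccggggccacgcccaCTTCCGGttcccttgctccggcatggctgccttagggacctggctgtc
In Mrps18c the capitals are an E-box that begins 163 bases before the start site and an ETS motif on the opposite strand 156 bases before it. In Mrpl20 they are an E-box that begins 33 bases before the start site. In Mrpl36 they are an E-box 43 bases and a YY1 motif 30 bases before it, the latter on the opposite strand. In Mrpl52 they are ETS motifs on the opposite strand, 47 bases before and 2 bases after the start site.

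Motifs were searched on both strands in the promoters of the 68 genes with an entry, and a match is a description of the letters and no binding site. The ETS motif CCGGAAG was present for 25 of 68 genes (36.8%), against 9.93% of all 27025 genes in the promoter table and 22.7% of the tested genes in it. The YY1 motif AAGATGGC was present for 12 genes (17.6%), against 3.19% and 6.05%. The NRF1 core GCGCATGC was present for 8 genes (11.8%), against 3.05% and 6.798%. The E-box CACGTG was present for 5 genes (7.35%), against 8.09% and 12.5%. Related lists held the same motifs. The ETS motif was in 37.9% of the promoters of cytoplasmic ribosomal proteins and in 24.2% of those of oxidative phosphorylation subunits, and the NRF1 core in 4.55% and 15.2%. The YY1 motif was in 9.09% and 13.6% of them, and the E-box in 9.09% and 7.58%. The E-box reads alike on both strands, and no motif contains another.

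The median log2 ratio was alike with and without most of these motifs. It was 0.39 with the ETS motif and 0.36 without, 0.37 and 0.38 for the NRF1 core, and 0.45 and 0.36 for the YY1 motif. The 5 genes with an E-box, which were Mrps18c, Mrpl20, Mrpl36, Mrpl37 and Mrpl2, had a median of 0.70, against 0.38 for the other 63. These 5 genes ranged from 0.31 to 1.02, with Mrpl37 at 0.32 and Mrpl2 at 0.31.

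At the lower end, no gene of either subunit was at least 20% lower, against 21.7% of all tested genes. Mrpl52, a protein specific to mitochondria, was at 25.3 RPKM in NTB-GMP against 23.2 RPKM in 4T1-GMP, a log2 ratio of -0.12 (-0.45 to 0.21). Mrpl24, at the mouth of the exit tunnel, was at 54.3 and 53.8 RPKM, a log2 ratio of -0.01 (-0.16 to 0.13). Mrpl50, Mrpl10 and Mrpl16 followed with log2 ratios of 0.07, 0.08 and 0.09. All these intervals included 0. Mrpl24 was among the more abundant genes, and its interval ended below 0.32, the log2 ratio of a 25% higher level.

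The lowest of the small subunit was Mrps35, at 30.3 RPKM in NTB-GMP against 28.2 RPKM in 4T1-GMP, a log2 ratio of -0.10 (-0.29 to 0.08). Mrps27, which carries pentatricopeptide repeats, was at 14.7 and 14.8 RPKM, a log2 ratio of 0.01 (-0.19 to 0.21). Mrps10 was at 19.6 and 20.1 RPKM, Mrps31 at 12.3 and 12.6 RPKM and Mrps2 at 26.8 and 27.9 RPKM, with log2 ratios of 0.03, 0.04 and 0.06. The intervals of all 5 genes included 0. Mrps10 and Mrps2 have a bacterial counterpart, and the other three are specific to mitochondria.

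Paralogs of bacterial S18 occur under 3 symbols and enter the ribosome at different places. Mrps18c and Mrps18b are parts of the small subunit, whereas Mrps18a is built into the large one. Mrps18c had a log2 ratio of 1.02 (0.79 to 1.26). Mrps18a was at 23.5 RPKM in NTB-GMP against 37.1 RPKM in 4T1-GMP, a log2 ratio of 0.65 (0.44 to 0.88). Mrps18b was at 34.98 and 47.6 RPKM, a log2 ratio of 0.44 (0.16 to 0.74). All 3 were at least 25% higher, and the interval of Mrps18c lay above that of Mrps18b.

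The stalk is the flexible arm that recruits translation factors. Mrpl12 had a log2 ratio of 0.49 (0.37 to 0.62). Mrpl10, which anchors Mrpl12 to the ribosome, was at 25.1 RPKM in NTB-GMP against 26.6 RPKM in 4T1-GMP, a log2 ratio of 0.08 (-0.14 to 0.31). Mrpl11, at the base of the stalk, was at 10.8 and 12.2 RPKM, a log2 ratio of 0.18 (-0.01 to 0.36). The lower end of the Mrpl12 interval, 0.366, lay just above the upper end of the Mrpl11 interval, 0.363. After quantile normalization Mrpl12 was at 0.24 against 0.16 for Mrpl11 and -0.025 for Mrpl10.

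Single proteins with a known task had unequal log2 ratios. Mrpl45, which ties the exit of the ribosome to the inner membrane, was at 16.3 RPKM in NTB-GMP against 21.7 RPKM in 4T1-GMP, a log2 ratio of 0.41 (0.25 to 0.57). Mrps12, the decoding-site protein in whose bacterial counterpart streptomycin resistance arises, was at 24.6 and 26.8 RPKM, a log2 ratio of 0.13 (-0.24 to 0.51). Its reads were recovered up to a common factor that was set to 9, for a length of 324 bases, so this interval may be too wide. Mrps30 carries a small-subunit name but belongs to the large subunit, and it was at 18.2 and 22.04 RPKM, a log2 ratio of 0.27 (0.09 to 0.47). Mrps36 is a subunit of the oxoglutarate dehydrogenase complex of the citric acid cycle and is not seen in structures of the ribosome. It was at 17.6 and 26.6 RPKM, a log2 ratio of 0.59 (0.32 to 0.89).

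Assigning genes by structure rather than by symbol, with Mrps30 and Mrps18a in the large subunit and Mrps36 left out, gave medians of 0.42 over 50 large-subunit genes and 0.27 over 26 small-subunit genes. Proteins with a bacterial counterpart had a median of 0.43 in the large subunit (30 genes, 20 at least 25% higher) and 0.41 in the small subunit (16 genes, 9 at least 25% higher). Mitochondria-specific proteins had a median of 0.40 in the large subunit (20 genes, 13 at least 25% higher) and 0.16 in the small subunit (10 genes, 3 at least 25% higher). The last class therefore lay closest to the all-gene median of 0.05. With Rn45s left out its median was 0.0017, with 5 of 10 genes above 0, against 39.2% of all tested genes. Whether this class differs from the others was not tested. Over all tested genes, 25.2% were at least 25% higher. Of the S18 paralogs, Mrps18c was counted as having a bacterial counterpart, and Mrps18a and Mrps18b as mitochondria-specific. Mrps18b, at 0.44, is thus in the small class of 10 genes, and another assignment was not tried.

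Within the large subunit, the 7 genes assigned here to the central protuberance, which reaches towards the small subunit, all had a log2 ratio above 0. Above 0 were also 46 of the 48 large-subunit genes by symbol. Mrpl52, at -0.12, was assigned to none of the sites named here. The count of 7 of 7 depends on that assignment, and another was not tried. The log2 ratios of the 7 genes ran from 0.19 for Mrpl48 to 0.60 for Mrpl40, with a median of 0.43. At least a 25% higher level was found for 6 of 7, against 25.2% of all tested genes. Without Rn45s in the library sizes it was found for 1 of 7, against 14.3%. The interval of Mrpl48 included 0 (-0.11 to 0.51). The 7 genes around the exit tunnel ran from -0.01 for Mrpl24 to 0.87 for Mrpl47, with a median of 0.30 and 3 of 7 at least 25% higher. The 3 stalk genes had a median of 0.18.

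**Figure D3:**
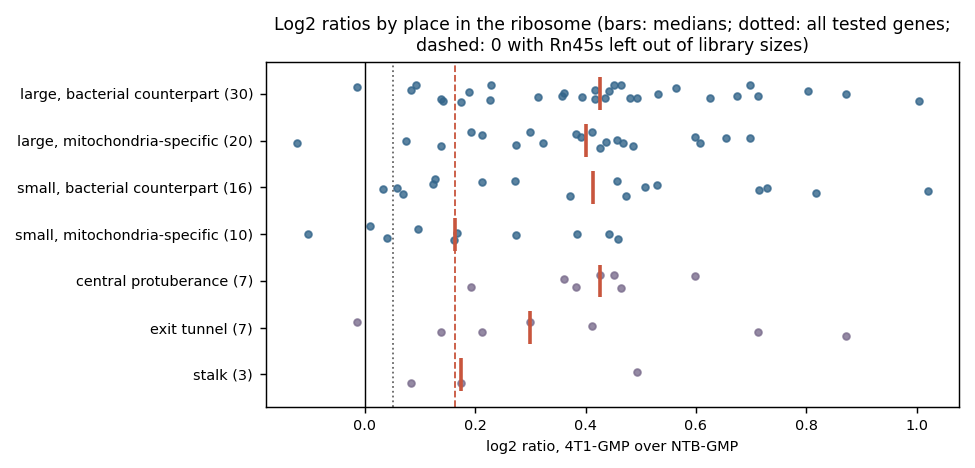
Log2 ratios of 4T1-GMP over NTB-GMP by place in the ribosome, with 1 point per gene, red bars at the medians and the number of genes in parentheses; the lower groups are parts of the large subunit. The dotted line is the median of all tested genes (0.05), the dashed line is where 0 lies without Rn45s in the library sizes, and the mitochondria-specific small-subunit genes have the lowest median (0.16).

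Other proteins of the same ribosome carry symbols outside the Mrpl and Mrps series, and 6 of these were in the tables. All 6 were above 0 and 3 (50%) were at least 25% higher, beside 54.7% and 25.2% of all tested genes. Their median log2 ratio was 0.33. Aurkaip1, of the small subunit, was at 29.7 RPKM in NTB-GMP against 47.9 RPKM in 4T1-GMP, a log2 ratio of 0.68 (0.40 to 0.98). Chchd1 had a log2 ratio of 0.53 (0.34 to 0.72), and Ptcd3 had one of 0.43 (0.33 to 0.54). The GTP-binding protein Dap3 was at 0.22 (0.08 to 0.37). In the large subunit, Ict1, a peptidyl-tRNA hydrolase built into the ribosome, was at 0.21 (-0.04 to 0.47) and Gadd45gip1 at 0.15 (-0.02 to 0.32).

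Factors that assemble the ribosome were mostly above 0 by a small amount. Of 26 assembly factors, 22 (84.6%) were above 0, against 54.7% of all tested genes, with a median log2 ratio of 0.20. At least a 25% higher level was found for 6 (23.1%), close to the 25.2% of all tested genes, and 1 was at least 20% lower. Mettl15, a methyltransferase of the small ribosomal RNA, was at 1.71 RPKM in NTB-GMP against 3.24 RPKM in 4T1-GMP, a log2 ratio of 0.88 (0.38 to 1.5003). Mpv17l2, an inner membrane protein, was at 8.95 and 15.3 RPKM, a log2 ratio of 0.77 (0.44 to 1.13). The GTPase Gtpbp6 had the lowest log2 ratio, -0.34 (-0.67 to -0.0042), followed by the methyltransferase Mrm1 at -0.31 (-0.59 to -0.04).

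Of 14 translation factors, 11 (78.6%) were above 0, against 54.7% of all tested genes, with a median of 0.13. A level at least 25% higher was found for 4 (28.6%) and one at least 20% lower for 2 (14.3%), beside 25.2% and 21.7% of all tested genes. Tsfm, the exchange factor of the elongation factor Tufm, was at 14.4 RPKM in NTB-GMP against 21.5 RPKM in 4T1-GMP, a log2 ratio of 0.58 (0.34 to 0.83). The ribosome recycling factor Mrrf had one of 0.50 (0.26 to 0.76). Mtif2, the initiation factor that places the first tRNA, was at 14.1 and 10.7 RPKM, a log2 ratio of -0.40 (-0.57 to -0.24). The release factor gene Mtrf1l had one of -0.58 (-0.92 to -0.27). Once Rn45s was dropped from the divisor, 5 of the 14 factors were above 0, with a median of -0.03. Over all tested genes the share was then 39.2% and the median -0.11, so the higher share above 0 was not kept.

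Of 20 genes for mitochondrial tRNA charging, 11 (55%) were above 0, close to the 54.7% of all tested genes, with a median log2 ratio of 0.01. At least a 25% higher level was found for 1 (5%), against 25.2% of all tested genes. A level at least 20% lower was found for 2 genes, beside 21.7% of all tested genes. Iars2, for isoleucine, had a log2 ratio of 0.35 (0.17 to 0.55) and Sars2, for serine, one of 0.30 (-0.03 to 0.66). Ears2, for glutamate, was at -0.46 (-0.79 to -0.19) and Fars2, for phenylalanine, at -0.43 (-0.71 to -0.15). Lars2, for leucine, was listed at 4517 RPKM in NTB-GMP against 4531 RPKM in 4T1-GMP, whereas the next gene of the list reached 24.2 RPKM in NTB-GMP. Lars2 was named here because its value stands apart. Which reads were counted there cannot be seen from RPKM, so the value was not taken as the level of its messenger RNA.

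Genes of mitochondrial DNA and RNA upkeep had a median log2 ratio of 0.22, with 16 of 22 (72.7%) above 0, against 54.7% of all tested genes. At least a 25% higher level was found for 5 (22.7%), against 25.2% of all tested genes, and 1 was at least 20% lower. Slirp, the partner of Lrpprc in stabilizing mitochondrial messenger RNAs, was at 47.1 RPKM in NTB-GMP against 72.1 RPKM in 4T1-GMP, a log2 ratio of 0.61 (0.39 to 0.84). Fastkd3 had one of 0.52 (0.26 to 0.80). Polg2, the accessory subunit of the mitochondrial DNA polymerase, was at 4.55 and 1.90 RPKM, a log2 ratio of -1.22 (-1.72 to -0.79). The replicative helicase, listed under its older symbol Peo1, had a log2 ratio of -0.23 (-0.41 to -0.06), and its exons overlap those of Mrpl43 on the opposite strand.

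Subunits of oxidative phosphorylation, the complexes that the mitochondrial ribosome helps to build, resembled the ribosomal proteins in their counts. Of 78 tested nuclear genes, 73 (93.6%) were above 0 and 44 (56.4%) were at least 25% higher, with a median of 0.35. Over all tested genes these shares were 54.7% and 25.2%. A level at least 20% lower was found for 2 genes, against 21.7% of all tested genes. Ndufs5 had the highest log2 ratio, 1.84 (0.08 to 5.21), on 2 reads in NTB-GMP, and Ndufc1 followed at 0.89 (0.61 to 1.18). Atp5sl was at -0.37 (-0.73 to -0.01) and Cox6b2 at -0.53 (-0.97 to -0.10). The list was taken by symbol, so a gene such as Atp5sl may not encode a subunit.

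Cytoplasmic ribosomal proteins, which form the ribosome of the cytosol, had a median log2 ratio of 0.04, close to that of all tested genes. Of 83 tested genes, 53 (63.9%) were above 0, 5 (6.02%) were at least 25% higher and 0 were at least 20% lower. Over all tested genes these shares were 54.7%, 25.2% and 21.7%. Rpl34 had the highest log2 ratio, 1.15 (0.75 to 1.58), and Rpl26 followed at 0.86 (0.02 to 1.87). Rplp2 was lowest at -0.32 (-0.37 to -0.27), before Rps27 at -0.30 (-0.99 to 0.41). Many of these genes have near-identical processed copies in the genome, so their RPKM are uncertain. Without Rn45s in the library sizes, 21 of the 83 cytoplasmic genes and 62 of the 78 oxidative phosphorylation genes were above 0. Of all tested genes, 39.2% were above 0 on that scale. The medians of the 2 lists were -0.13 and 0.19, beside -0.11 for all tested genes.

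**Figure D4:**
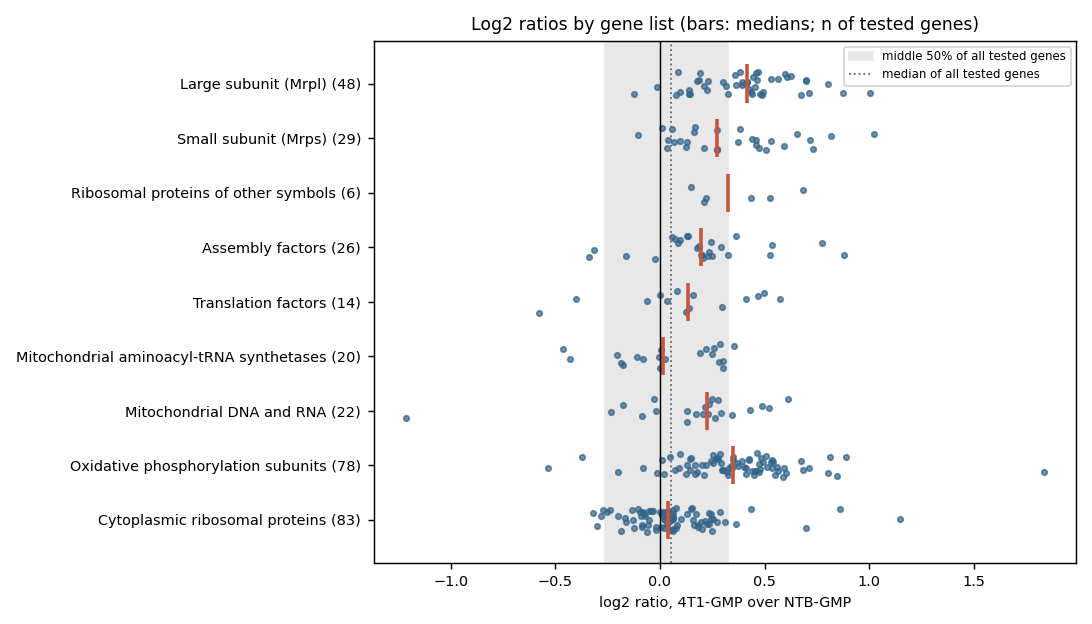
Log2 ratios of 4T1-GMP over NTB-GMP by gene list, with 1 point per tested gene and red bars at the list medians; grey marks the middle 50% of all tested genes (-0.26 to 0.32) and the dotted line their median (0.05). The large subunit (0.42), small subunit (0.27), other-symbol ribosomal proteins (0.33) and oxidative phosphorylation subunits (0.35) lie to the right of the cytoplasmic ribosomal proteins (0.04).

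Short transcripts had higher log2 ratios than long ones in these libraries as a whole, and most members are short. The length behind the RPKM, itself a lower bound, had a median of 959 bases over the 77 genes and 2521 bases over all tested genes. Below 1000 bases, 1515 tested genes had a median log2 ratio of 0.17, and the 40 members there had one of 0.41. From 1000 to under 2000 bases, the medians were 0.16 over 2494 tested genes and 0.38 over 26 members. From 2000 to under 4000 bases, they were 0.05 over 3749 tested genes and 0.46 over 8 members. At 4000 bases or more, they were -0.10 over 2619 tested genes and 0.36 over 3 members. The members' median was thus above that of the tested genes in each class. Over the 77 genes, the Spearman correlation of the log2 ratio was 0.09 with length and -0.07 with the NTB-GMP level, as a description of genes that share both libraries.

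**Figure D5:**
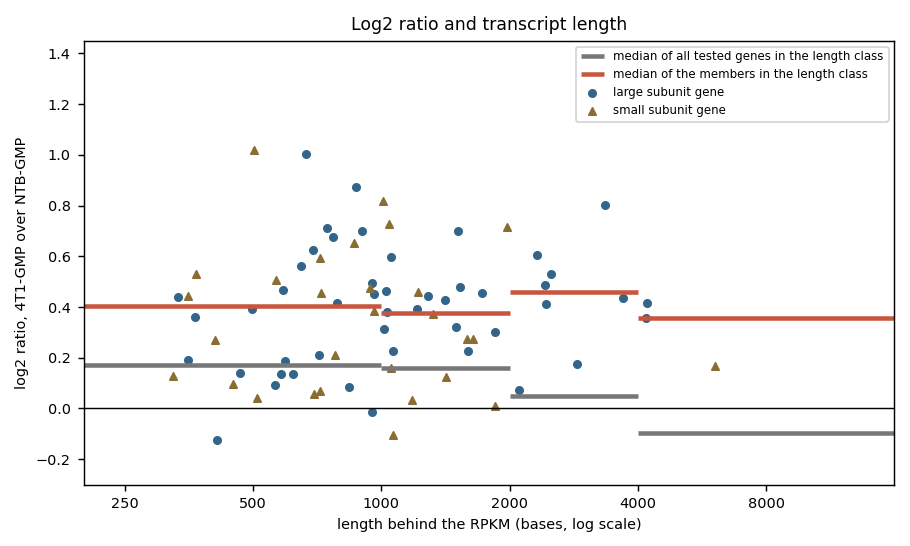
Log2 ratio of 4T1-GMP over NTB-GMP against the length behind the RPKM (log scale), with 1 point per gene (circles large subunit, triangles small subunit). Red lines are the medians of the members and grey lines those of all tested genes in each of 4 length classes; in each class the red line, between 0.36 and 0.46, lies above the grey one, between -0.10 and 0.17.

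The genes were spread over 17 chromosomes. Exons of 23 of the 77 genes overlapped another protein-coding gene in GENCODE M21, 20 of them on the opposite strand and 4 on the same strand. The 23 genes had a median log2 ratio of 0.37 with 13 at least 25% higher. The other 54 genes had one of 0.43 with 33 at least 25% higher, beside 25.2% of all tested genes. Mrpl47, Mrpl36, Mrps11 and Mrps24 (on the same strand), among the highest ratios, and Mrpl24, among the lowest, were in the first set, whereas Mrps18c, Mrpl20, Mrpl17 and Mrpl52 were not.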

How the data were processed

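RNA from flow-sorted GMPs was measured by bulk RNA-seq in 1 NTB-GMP and 1 4T1-GMP library. The authors deposited RPKM, 1 value per gene symbol and library, computed with edgeR per the file names. The submitters' processing notes also list CASAVA 1.8.2, cutadapt 1.2.1, TopHat2 2.0.13, Picard 1.97, HTSeq 0.6.1, edgeR 3.12.1 and the build mm10, without roles or order, and the strand setting, annotation and gene lengths are not given in the sources used here. Since RPKM carry the library size as a divisor, a ribosomal RNA share in it moves every gene alike.

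Whole reads were recovered from ratios of the RPKM, which hold full precision, for 14832 of the 14833 symbols above 0. The recovered reads and lengths are lower bounds by a common factor, which was raised until the length reached 300 bases, as needed for 8 of the 77 members. Library sizes recovered the same way were 10180365 and 30016263 reads. The recovery of read ratios and library sizes was checked on counts simulated with the recovered lengths, so the common factor itself was not tested. A log2 ratio is the difference of log2(RPKM + 0.1) between libraries, given where the mean RPKM reached 1, and a gene was called higher from 25% above and lower from 20% below its NTB-GMP level on that scale. Clopper-Pearson intervals cover counting error only, and they are too wide where the recovered reads fall below the true number. Exon overlaps came from GENCODE M21 and promoters from RefSeq (GRCm38.p6); 9 members had no promoter entry. Python 3.11.15, numpy 2.4.6, pandas 2.3.3, scipy 1.17.1 and matplotlib 3.10.9 were used.

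The members, gene lists, motifs and structural classes were chosen with earlier results of these data known, and the classes were written from knowledge of the mammalian ribosome. In each subunit by symbol, the genes named were the 5 highest and 5 lowest log2 ratios, the 3 highest and 3 lowest NTB-GMP levels, the S18 paralogs, the stalk proteins, Mrpl45, Mrps12, Mrps30 and Mrps36. Ribosomal proteins of other symbols were all named, and in each other list the 2 highest and 2 lowest log2 ratios. Genes named beside a site, motif or overlap, and Lars2, were added after their values were seen.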

Additional observations from a re-analysis of the deposited data

How the results depend on the processing

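All 77 genes pass every filter on low values, so 2 of the 8 alternative settings (all genes above 0, and a minimum mean RPKM of 5) could change no value of theirs. Under the other 6 settings and the 3 more chosen after seeing the data, the medians of the 77 genes and of both subunits stayed above 0, and the large subunit's stayed the higher, but several moved by over 1.5 times. Without Rn45s in the library sizes the median was 0.23 for all 77 genes, 0.25 for the large and 0.11 for the small subunit, and 22 genes rather than 46 were at least 25% higher. After quantile normalization the median of all 77 genes was 0.26 and the large-minus-small difference was 0.086. After centring within length classes (added), the large-subunit median was 0.27, the difference was 0.062 and 25 genes were at least 25% higher. No gene of the 77 was at least 20% lower under any rescaling, against 3304 of the 10378 tested genes without Rn45s. Of 210 values of 42 named genes under 5 settings, 191 stayed within the gene's own interval. The pseudocounts and the centring on all tested genes shift these genes little and moved no value out. The 19 values that left the interval all came without Rn45s or after quantile normalization. Of genes past the threshold, 0 values changed sign. Mrpl33, at 0.14, came to -0.02 without Rn45s and -0.10 after quantile normalization. There was no replicate to leave out. No paired analysis was possible because the groups share no replicate number beyond a single library. At 64 to 722 NTB-GMP reads per gene, the counting interval had a median half-width of 0.20 on the log2 scale. With 1 library per group, this width gives no limit of detection for a difference between the groups.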
